A study of Mus musculus with 16 samples.

Results

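miR-155 is made from 1 hairpin, which yields a guide arm, mmu-miR-155-5p, and a passenger arm, mmu-miR-155-3p, written here without the species prefix. Both were found by name in the deposited count table, and they were 2 of 1372 miRNA names analysed and 2 of the 568 that passed the filter on low counts. The cells were dendritic cells cultured from marrow of male C57BL/6 mice, all marked WT (wild type) in the sample titles. Each of 4 mice gave 1 library to each of 4 groups, 16 in all. Cells of the quercetin plus LPS group received 25 µM quercetin, a plant flavonol, on days 5 and 7 and then 1 µg/mL lipopolysaccharide (LPS), the Gram-negative outer membrane lipid sensed by TLR4, for 6 h on day 8. Cells of the LPS group received the same LPS alone, those of the quercetin group the same quercetin alone, and control cells neither. The mice were 8 weeks old except mouse 4, which was 7 weeks old per its labels. The marrow was depleted of red cells by lysis before culture, and no sorting of the cultured cells is given in the sources used here.

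Most miRNA genes are cut from a longer transcript as a hairpin, and a second cut removes its loop to leave a duplex of both arms. One arm, the guide, is kept in an Argonaute protein and pairs with target mRNAs mainly through its seed, bases 2 to 8, while the passenger arm is usually discarded and lost. miR-155 is known as a miRNA whose host transcript responds to Toll-like receptor signals through NF-kB and AP-1, and its guide arm acts on regulators of inflammatory signalling such as Socs1 and Inpp5d.

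The hairpin and arms are shown because the main results below are the levels of these arms and their ratio. They are RefSeq sequences of build GRCm38.p6, 5′ to 3′. The hairpin lies at chr16:84714140-84714204 on the plus strand, within exon 2 of the long non-coding RNA gene Mir155hg in the GENCODE annotation of the same build. The deposited table itself carries no coordinates. In the first line capitals mark the arms, and in the other lines they mark the seed.
Mir155 hairpin: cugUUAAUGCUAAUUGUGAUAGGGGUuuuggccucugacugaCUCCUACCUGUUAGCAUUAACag
miR-155-5p: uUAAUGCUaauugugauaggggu
miR-155-3p: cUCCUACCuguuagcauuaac

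The guide has 23 bases and covers hairpin bases 4 to 26, the passenger has 21 and covers bases 43 to 63, and 16 bases lie between them. Neither seed occurs at bases 2 to 8 of any other of the 1679 mouse mature miRNA names in the reference table. The nearest other mature sequence differed from the guide by 8 edits and from the passenger by 6. Reads of either arm thus have no near-identical copy in that table.

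Library totals ran from 6454535 counts in a quercetin plus LPS library to 13943904 in an LPS library, and between 823 and 997 miRNAs were detected per library. Totals lay between 6454535 and 9035375 in the quercetin plus LPS group, 10096639 and 13943904 in the LPS group, 7694885 and 8563815 in the quercetin group, and 8660267 and 12529118 in controls. Levels below are CPM, counts scaled to a common library size with TMM factors. The blood cell miRNA miR-142a-5p stood at 18025 CPM or more in quercetin plus LPS, 21579 or more in LPS, 15906 or more in quercetin and 16696 or more in control libraries. No miRNA in the table defines dendritic cells against other myeloid cells, so the labelled type was not tested beyond this. In RNA from bulk cultures, fewer cells of a type and less RNA per cell cannot be told apart.

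The guide was among the most abundant miRNAs in every library and the passenger stood far below it. miR-155-5p ranked between 4 and 10 of all names, with 234145 to 601845 counts a library. miR-155-3p ranked between 76 and 212, with 366 to 8185 counts. In controls the guide averaged 36158 ± 12338 CPM (SD, n = 4), next to let-7f-5p above (43835 ± 16240) and miR-92a-3p below (27204 ± 2845). The passenger averaged 139 ± 57.6 CPM in controls, level with miR-674-5p (139 ± 35.3) and miR-500-3p (137 ± 22.3). Across the 16 libraries the passenger spanned a 20.8-fold range and the guide a 3.08-fold range. The smallest passenger count, 366, has a counting error of 5.23%, well under the spread between libraries.

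miR-155-3p was at 334, 131, 186 and 274 CPM in quercetin plus LPS libraries of mice 1 to 4. It was at 606, 797, 389 and 431 CPM in LPS libraries and at 48.1, 38.3, 55.6 and 45.5 CPM in quercetin libraries. Control libraries had 154, 214, 92.8 and 94.0 CPM. LPS libraries all lay above the controls, as for 2.11% of the 568 miRNAs tested. They also lay above the quercetin plus LPS libraries, and 13.4% were separated in that direction. Quercetin libraries all lay below the controls (11.1% of all tested) and below the quercetin plus LPS libraries (1.94%). The quercetin plus LPS and control groups overlapped.

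miR-155-5p was at 36696, 27518, 31126 and 68255 CPM in quercetin plus LPS libraries and at 50716, 50676, 31804 and 66430 CPM in LPS libraries of mice 1 to 4. Quercetin libraries had 28803, 33224, 37829 and 31786 CPM, and control libraries 22193, 43203, 49315 and 29919 CPM. All 4 groups overlapped. Mouse 4 gave the highest guide level in both groups with LPS, while mouse 3 gave the highest in the quercetin and control groups.

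**Figure D1:**
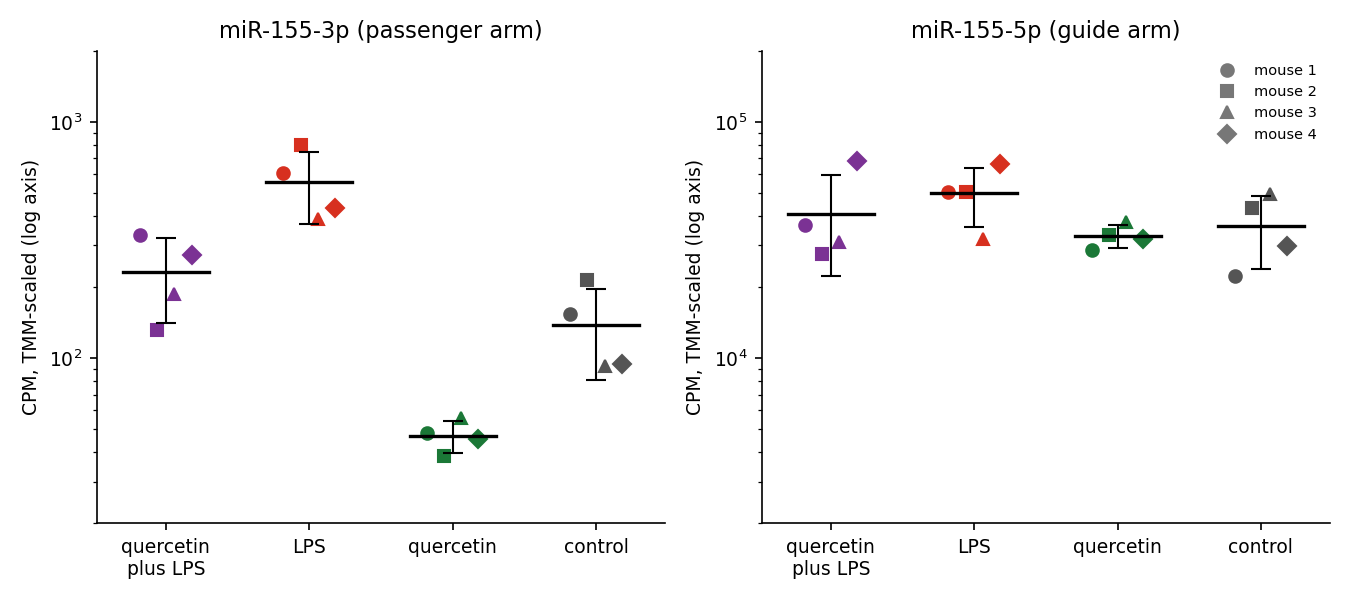
Level of miR-155-3p (left) and miR-155-5p (right) in CPM on log axes that span the same number of decades, 1 point per library with the mouse as its shape; black bars are mean and SD of 4 libraries. The passenger means run from 46.9 CPM in quercetin to 556 CPM in LPS libraries, while the guide groups overlap.

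The first comparison asked what LPS does to each arm in cells without quercetin. The passenger rose 4-fold while the guide did not pass the test. miR-155-3p averaged 556 ± 186 CPM in LPS and 139 ± 57.6 CPM in control libraries (SD, n = 4 each), a log2 difference of 2.00 ± 0.35 (SE, adjusted p = 0.0106 by edgeR) or 4.01-fold with a 95% interval of 2.41 to 6.65. Within mice the fold was 3.93, 3.73, 4.19 and 4.58, so it was higher in 4 of 4. It had the smallest p of 568 miRNAs, of which 3 rose (0.528%), and 2.11% of them had LPS libraries all above the controls.

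miR-155-5p averaged 49907 ± 14165 CPM in LPS and 36158 ± 12338 CPM in control libraries. The log2 difference was 0.46 ± 0.30 (adjusted p = 0.999 by edgeR), with an interval of 0.89-fold to 2.15-fold, and the level was higher in 3 of 4 mice. The interval includes no change, and a guide rise beyond 2.15-fold or a fall below 0.89-fold lies outside it. The passenger call was lost when control replicate 1, 3 or 4 was left out, or LPS replicate 1 or 2, with differences of 1.72 to 2.03 and adjusted p between 0.0503 and 0.0738, and without all of mouse 4 (1.96, adjusted p = 0.0943).

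The same question was asked of cells that had received quercetin first, in libraries that share none with the comparison above but come from the same mice. Here too the passenger rose and the guide did not pass. miR-155-3p averaged 231 ± 90.1 CPM in quercetin plus LPS and 46.9 ± 7.14 CPM in quercetin libraries (SD, n = 4 each). The log2 difference was 2.30 ± 0.35 (adjusted p = 0.00168 by edgeR), or 4.93-fold (95% interval 2.95 to 8.24), and this was the largest rise of all 568. Only 2 miRNAs (0.352%) rose in this comparison. Groups did not overlap for 11 miRNAs that were higher (1.94%). Within mice 1 to 4 the fold was 6.93, 3.42, 3.35 and 6.03.

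The guide averaged 40899 ± 18625 CPM in quercetin plus LPS and 32910 ± 3760 CPM in quercetin libraries, a log2 difference of 0.31 ± 0.30 (adjusted p = 0.742). Its interval ran from 0.80-fold to 1.93-fold, and it was higher in 2 of 4 mice. Without mouse 4 the guide difference was -0.07. The passenger call held without any single library and was lost without mouse 4 (log2 difference 2.20, adjusted p = 0.0590).

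Averaged over both quercetin states, LPS raised miR-155-3p by 2.15 ± 0.25 on the log2 scale (adjusted p = 4.3e-05 by edgeR), or 4.44-fold with a 95% interval of 3.10 to 6.38. Of 568 miRNAs, 6 rose (1.06%) and 2 fell (0.352%), and its p was the second smallest, after miR-222-5p. For miR-155-5p the averaged difference was 0.39 ± 0.21 (adjusted p = 0.954), with an interval of 0.96-fold to 1.79-fold. Whether the LPS response of an arm differs with quercetin was tested as an interaction. It was 0.30 ± 0.47 for the passenger (adjusted p = 0.923, interval -0.70 to 1.30) and -0.15 ± 0.43 for the guide (adjusted p = 0.935, interval -1.05 to 0.75). By edgeR 0 of 568 miRNAs passed the interaction test and 26 had an unadjusted p under 0.05, and DESeq2 and limma-voom also gave 0. These intervals leave room for a passenger response up to 2.46-fold larger with quercetin or down to 0.62 of its size without.

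The next comparison asked what quercetin alone does. The passenger fell to 0.34 of its control level and the guide did not pass. miR-155-3p averaged 46.9 ± 7.14 CPM in quercetin and 139 ± 57.6 CPM in control libraries (SD, n = 4 each), a log2 difference of -1.56 ± 0.34 (adjusted p = 0.00587 by edgeR). The fold was 0.34 with a 95% interval of 0.20 to 0.56. Within mice it was 0.31, 0.18, 0.60 and 0.48, lower in 4 of 4. Here 51 of 568 miRNAs fell (8.98%) and 39 rose (6.87%), against 29 and 48 with upper quartile scaling, and 11.1% of them had quercetin libraries all below the controls, so the passenger was 1 of many, 25th by size among falls.

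The spread of the passenger differed between these groups, at 15.2% of the mean in quercetin and 41.5% in control libraries. miR-155-5p averaged 32910 ± 3760 CPM in quercetin and 36158 ± 12338 CPM in control libraries. Its log2 difference was -0.14 ± 0.30 (adjusted p = 0.813, interval 0.58-fold to 1.42-fold), with 2 mice higher and 2 lower. It stood at 0.01 with library size scaling and at 0.07 with upper quartile scaling, which moved the median of all miRNAs from -0.05 to 0.15. The passenger passed without each single library and under the 10 other settings run, with adjusted p of at most 0.0290.

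In cells given LPS, quercetin was likewise followed by a lower passenger level. miR-155-3p averaged 231 ± 90.1 CPM in quercetin plus LPS and 556 ± 186 CPM in LPS libraries (SD, n = 4 each). The log2 difference was -1.26 ± 0.34 (adjusted p = 0.0147 by edgeR), or 0.42-fold with a 95% interval of 0.25 to 0.68. Within mice the fold was 0.55, 0.16, 0.48 and 0.64. In this comparison 81 of 568 miRNAs fell (14.3%) and 49 rose (8.63%), against 50 and 75 with library size scaling, and 13.4% had quercetin plus LPS libraries all below the LPS ones.

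The guide averaged 40899 ± 18625 CPM in quercetin plus LPS and 49907 ± 14165 CPM in LPS libraries, a log2 difference of -0.29 ± 0.30 (adjusted p = 0.546, interval 0.53-fold to 1.28-fold). It was lower in 3 of 4 mice, and stood at 0.05 without quercetin plus LPS replicate 2 and at 0.04 without LPS replicate 4. The passenger call was lost when quercetin plus LPS replicate 2, 3 or 4 was left out, or LPS replicate 1 or 2, with differences of -1.11 to -0.85 and adjusted p between 0.0543 and 0.122. It was also lost with upper quartile scaling (-0.92, adjusted p = 0.0580) and when only these groups were fitted (-1.08, adjusted p = 0.0890).

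Averaged over both LPS states, miR-155-3p fell by 1.41 ± 0.24 on the log2 scale with quercetin (adjusted p = 3.0e-04 by edgeR), or 0.38-fold with a 95% interval of 0.26 to 0.53, in a comparison where 114 of 568 fell (20.1%) and 92 rose (16.2%), against 75 and 125 with upper quartile scaling. For miR-155-5p the averaged difference was -0.21 ± 0.21 (adjusted p = 0.495, interval 0.63-fold to 1.18-fold), and 0.03 with upper quartile scaling.

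Beside the quercetin differences, markers of red cells moved. Their list of 7 holds miR-486a and miR-486b, which had the same values and so enter the sums and counts in duplicate. The 7 summed to 2343 to 5844 CPM in quercetin plus LPS libraries against 865 to 2800 in LPS libraries. In quercetin libraries they summed to 5045 to 13121 CPM against 777 to 1773 in controls. In each of these comparisons 5 of the 7 rose (3 of 7 without mouse 4). Of all miRNAs tested, 8.63% rose with quercetin plus LPS against LPS and 6.87% with quercetin against control. The defining miR-451a averaged 128 ± 33.2 CPM in quercetin and 18.1 ± 4.94 CPM in control libraries. The 20 stromal, endothelial and epithelial miRNAs summed to 372 to 4801 CPM (median 627) in quercetin plus LPS libraries against 224 to 324 (median 287) in LPS libraries. There 5 of 15 tested were higher, beside 8.63% of all miRNAs tested. In quercetin libraries the 20 summed to 322 to 1482 CPM against 303 to 725 in controls. Here 0 of 15 passed by edgeR, beside 6.87% of all that rose and 8.98% that fell. Of the 15, 0 had an unadjusted p under 0.05 by edgeR and 0 passed by DESeq2. The lymphocyte pair of miR-150 arms, markers of other cells that express miR-155, summed to 374 to 627 CPM in quercetin plus LPS, 382 to 872 in LPS, 543 to 787 in quercetin and 391 to 1023 CPM in control libraries, and neither arm passed in any comparison between groups. The 6 haematopoietic and myeloid miRNAs summed to 22197 to 33643 CPM in quercetin plus LPS and 25258 to 40093 in LPS libraries. They summed to 18053 to 30557 CPM in quercetin and 20070 to 38849 in control libraries. With quercetin against control 1 of 6 was lower, beside 8.98% of all miRNAs tested. The 4 miRNAs of unrelated tissues summed to 9.75 to 25.4 CPM in quercetin plus LPS libraries against 6.50 to 8.34 in LPS libraries. There 1 of 2 tested was higher, beside 8.63% of all miRNAs tested. In quercetin libraries the 4 summed to 7.85 to 22.0 CPM against 4.00 to 16.5 in controls. None of these markers was at 0 in all libraries. Their part in the passenger level was not tested.

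The last comparison set cells with both agents against cells with neither. miR-155-3p averaged 231 ± 90.1 CPM in quercetin plus LPS and 139 ± 57.6 CPM in control libraries, a log2 difference of 0.74 ± 0.34 (adjusted p = 0.139 by edgeR), or 1.67-fold with a 95% interval of 1.02 to 2.73. It was higher in 3 of 4 mice, and mouse 2 was the exception at 0.61-fold. It passed without quercetin plus LPS replicate 2 (1.11, adjusted p = 0.0364), without control replicate 2 (1.15, adjusted p = 0.0439) and with upper quartile scaling (1.01, adjusted p = 0.0474). The guide difference was 0.18 ± 0.30 (adjusted p = 0.737, interval 0.73-fold to 1.76-fold), and -0.27 without mouse 4. In this comparison 39 of 568 miRNAs rose (6.87%) and 58 fell (10.2%), against 62 and 43 with upper quartile scaling.

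Ordered by level, the passenger was highest with LPS, then with quercetin plus LPS, then in controls and lowest with quercetin. Of the neighbours in that order, quercetin plus LPS and control did not differ past the threshold. The guide means followed the same order, and no pair of groups differed past the threshold.

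**Figure D2:**
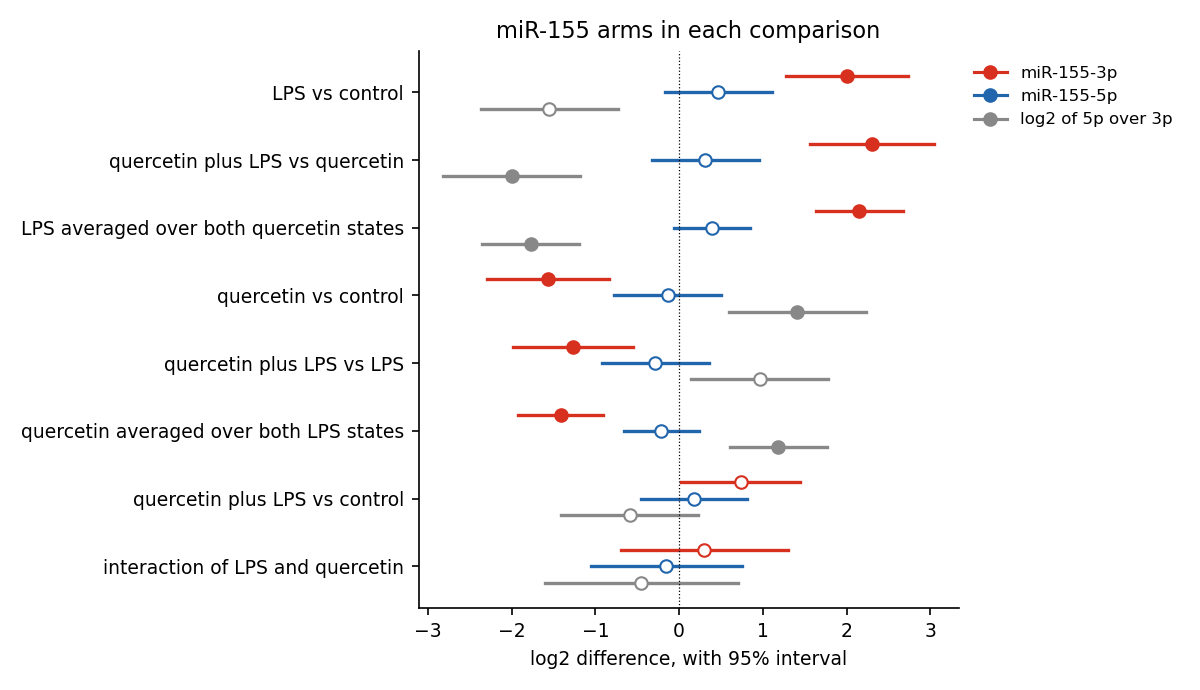
Log2 difference with its 95% interval for the passenger (red), the guide (blue) and the log2 ratio of guide to passenger (grey) in each comparison; filled points passed the threshold of 0.05 on the adjusted p (edgeR for the arms, limma for the ratio). The passenger lies at 2.00 and 2.30 for LPS and at -1.56 and -1.26 for quercetin, and the guide passes in none of the 8.

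Whether the arms responded differently was tested on their ratio within each library, which does not depend on how libraries are scaled. There were 110, 210, 167 and 249 guide counts per passenger count in quercetin plus LPS libraries of mice 1 to 4. LPS libraries had 83.7, 63.6, 81.8 and 154, and quercetin libraries 599, 867, 680 and 699. Control libraries had 144, 202, 531 and 318. Quercetin libraries all lay above the controls, as for 4.67% of the 150 hairpins tested, and above the quercetin plus LPS libraries (1.33%). The LPS and control ratios overlapped only through LPS replicate 4 and control replicate 1.

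**Figure D3:**
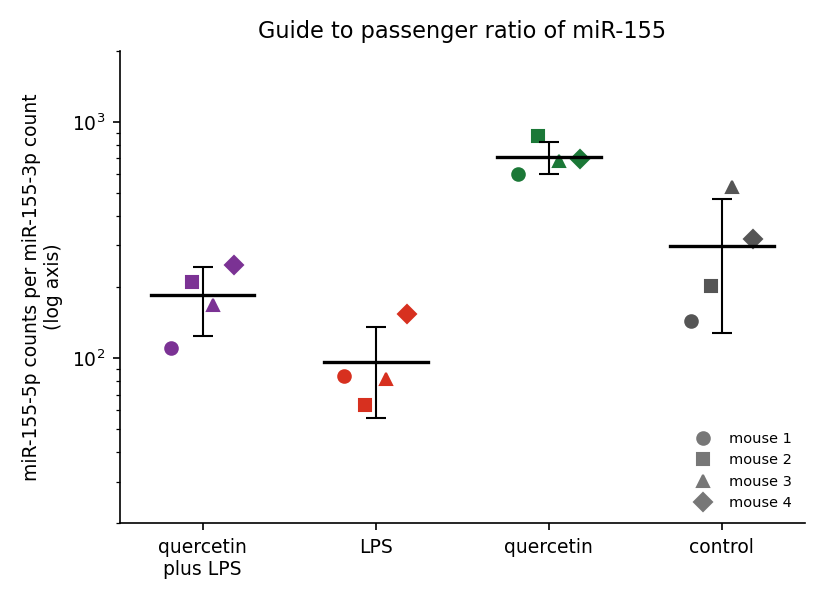
Guide counts per passenger count of miR-155 in each library on a log axis, with the mouse as the point's shape and mean and SD of 4 libraries in black. The ratio runs from 63.6 in an LPS library to 867 in a quercetin library.

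Averaged over both quercetin states, the log2 ratio of guide to passenger fell by 1.77 ± 0.27 with LPS (adjusted p = 8.4e-04 by limma over 150 hairpins), which is 0.29 of the ratio without LPS (95% interval 0.20 to 0.44). The ratio fell in 4 of 4 mice both without and with quercetin. It was the largest fall and the smallest p of the 150 hairpins with both arms measured, of which 2 fell (1.33%). The other was miR-27a (-1.29 ± 0.28, adjusted p = 0.0182), whose dominant arm is the 3p one. An exact permutation of libraries within each quercetin state, for this hairpin alone, gave p = 8.2e-04 (two-sided, adjusted p = 0.00571 over 7 comparisons). The call held without any single library, with adjusted p of at most 0.00345.

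Quercetin, averaged over both LPS states, raised the log2 ratio by 1.19 ± 0.27 (adjusted p = 0.00970 by limma), or 2.27-fold with an interval of 1.52 to 3.39. In this comparison 7 of 150 hairpins rose (4.67%), with miR-155 8th by size and 7th by p. The 7 include miR-486a and miR-486b, which had the same values. Each mouse had a higher ratio with quercetin in both LPS states. The call held without any single library, with adjusted p of at most 0.0259.

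Within single pairs of groups the ratio test was less firm. For quercetin plus LPS against quercetin the log2 ratio differed by -2.00 ± 0.39 (adjusted p = 0.0116 by limma), and miR-155 was the only hairpin of 150 past the threshold (0.667%). Its groups did not overlap, as for 2 of 150 hairpins that were lower (1.33%). This was lost without quercetin plus LPS 1 (-1.77, adjusted p = 0.0670) or quercetin 2 (-1.90, adjusted p = 0.0643). For LPS against control it differed by -1.55 ± 0.39 (adjusted p = 0.139), where 0 of 150 hairpins passed by limma and 7 had an unadjusted p under 0.05. It passed there without LPS replicate 4 (-1.80, adjusted p = 0.0482) or control replicate 1 (-1.84, adjusted p = 0.0320).

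For quercetin against control the ratio difference was 1.41 ± 0.39 (adjusted p = 0.0444 by limma). The 5 of 150 hairpins that were higher (3.33%) include both miR-486a and miR-486b, and groups did not overlap for 7 (4.67%). The miR-155 call held without control 3. It was lost without each of the other 7 libraries compared (adjusted p 0.0599 to 0.164 by limma, lowest difference 1.12). For quercetin plus LPS the difference was 0.96 ± 0.39 against LPS (adjusted p = 0.169) and -0.59 ± 0.39 against control (adjusted p = 0.380). The interaction was -0.45 ± 0.55 (adjusted p = 0.836, interval -1.61 to 0.70). With 4 libraries a group, an exact permutation cannot go below p = 0.0286, which became 0.05 over the 7 comparisons for both calls between pairs of groups.

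**Figure D4:**
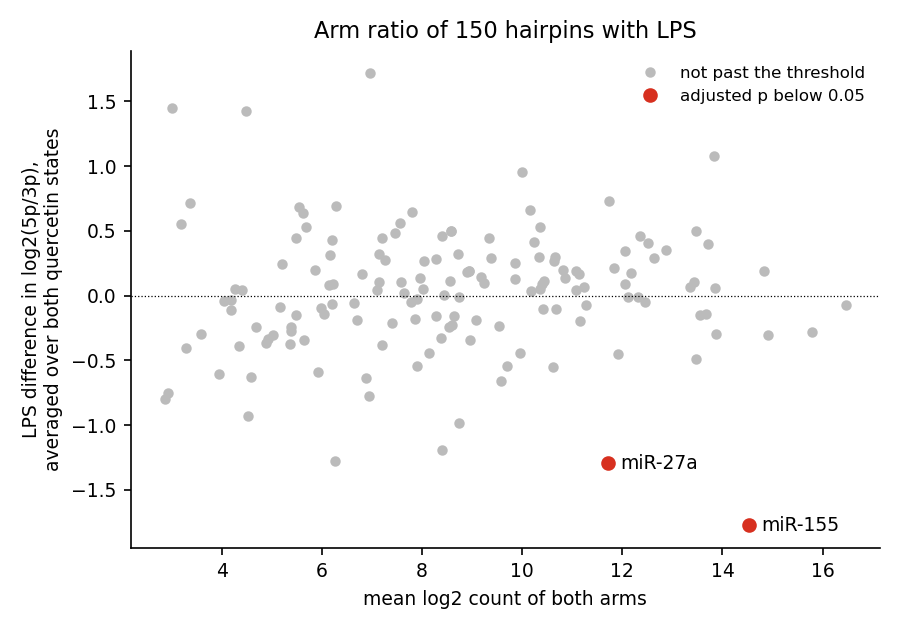
Difference in log2(5p/3p) with LPS, averaged over both quercetin states, against the mean log2 count of both arms for 150 hairpins; red points passed an adjusted p of 0.05 by limma. miR-155, at -1.77, lies lowest, and miR-27a follows among those past the threshold at -1.29.

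Compared with other hairpins, the arms of miR-155 are unequal in all groups. The geometric mean ratio was 176 in quercetin plus LPS, 90.5 in LPS, 704 in quercetin and 265 in control libraries. For comparison, the median of all 150 hairpins, dominant over minor arm, was 13.4 in quercetin plus LPS, 13.9 in LPS, 14.3 in quercetin and 11.6 in control libraries. By this measure miR-155 ranked 26th, 33rd, 14th and 17th of 150 in these groups.

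miR-155 was then set beside other miRNAs described as responding to TLR signals, a list of 26 arms from 13 hairpins of which 24 were tested. With LPS against control 1 of 24 rose, beside 0.528% of all miRNAs tested, and it was miR-222-5p, from the X-linked cluster of miR-221 and miR-222 (1.15 ± 0.21, adjusted p = 0.0106 by edgeR). The list's median log2 difference was 0.28, beside 0.02 for all miRNAs tested, and no member passed with library size or upper quartile scaling, with no filter, with only these groups fitted or without mouse 4. With quercetin plus LPS against quercetin miR-222-5p again was the only member to rise (1.56 ± 0.21, adjusted p = 6.9e-04), beside 0.352% of all, with a list median of 0.20 beside -0.06. Averaged over both states, miR-222-3p (1.01 ± 0.19) and miR-221-5p (1.48 ± 0.30) rose as well, so 3 of 24 rose, beside 1.06% of all. The passenger of miR-155 stood at 2.15 in the same comparison, and its difference from these members was not tested.

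With quercetin against control 11 of 24 members fell and none rose, beside 8.98% of all miRNAs tested that fell, with a list median of -1.23 beside -0.05 for all. The smallest p-values among them were those of miR-212-3p (-2.78 ± 0.28) and miR-132-5p (-1.99 ± 0.25), from a cluster that responds to CREB, and of miR-222-5p (-1.66 ± 0.21) and miR-132-3p (-1.85 ± 0.26). With quercetin plus LPS against LPS 14 of 24 fell and none rose, beside 14.3% of all that fell, with a median of -1.29 beside -0.13. miR-212-3p stood there at -3.35 ± 0.29. With library size scaling 10 fell and 1 rose, and with DESeq2 15 fell and 1 rose. With quercetin plus LPS against control 7 of 24 fell and none rose, beside 10.2% of all that fell, with a median of -0.40 beside -0.09, and the passenger of miR-155 stood at 0.74 in the same comparison. Averaged over both LPS states 15 of 24 fell with quercetin and none rose, beside 20.1% of all that fell, while with library size scaling 14 fell and 1 rose. The comparison with control and the averaged one share libraries with the others, while quercetin against control and quercetin plus LPS against LPS share mice but no library.

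The miRNAs whose log2 CPM across the 16 libraries was most like that of miR-155-3p were looked for among 310 others with a mean of at least 10 CPM. The closest was miR-221-5p (Pearson r = 0.95, Spearman rho = 0.93), followed by miR-222-5p (r = 0.89, rho = 0.84), miR-222-3p (r = 0.78), miR-10a-3p (r = 0.71) and miR-221-3p (r = 0.67). These are descriptions over libraries that share mice and treatments. The sequences of miR-221-5p and miR-222-3p, from RefSeq build GRCm38.p6 with seeds in capitals, are shown for comparison with the passenger, and their seeds differ from its seed. The seed of miR-222-5p was not compared.
miR-221-5p: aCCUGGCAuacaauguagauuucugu
miR-222-3p: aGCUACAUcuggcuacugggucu

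miR-221-5p averaged 383 ± 205 CPM in quercetin plus LPS, 927 ± 497 in LPS, 130 ± 36.7 in quercetin and 349 ± 112 CPM in control libraries. miR-222-5p averaged 171 ± 24.8 CPM in quercetin plus LPS, 408 ± 69.2 in LPS, 58.2 ± 1.23 in quercetin and 184 ± 42.6 CPM in control libraries. When each group's mean was removed, miR-221-5p (r = 0.90) and miR-10a-3p (r = 0.82) still varied with the passenger. The other named companions did not, with r = -0.12 for miR-222-5p, -0.28 for miR-222-3p and 0.17 for miR-221-3p. So within groups the libraries that were high for the passenger, such as LPS replicate 2, were also high for miR-221-5p.

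The guide had other companions. Its closest were miR-184-3p (r = 0.83), miR-467c-5p (r = 0.80), miR-26b-5p (r = 0.79), miR-30e-3p (r = 0.77) and miR-181d-5p (r = 0.75), and with group means removed these gave r from 0.77 to 0.90. Between the arms of miR-155 the correlation was r = 0.51 (rho = 0.52), and 0.30 with group means removed. The passenger stood 46th of 310 in likeness to the guide, and the guide 30th of 310 in likeness to the passenger.

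**Figure D5:**
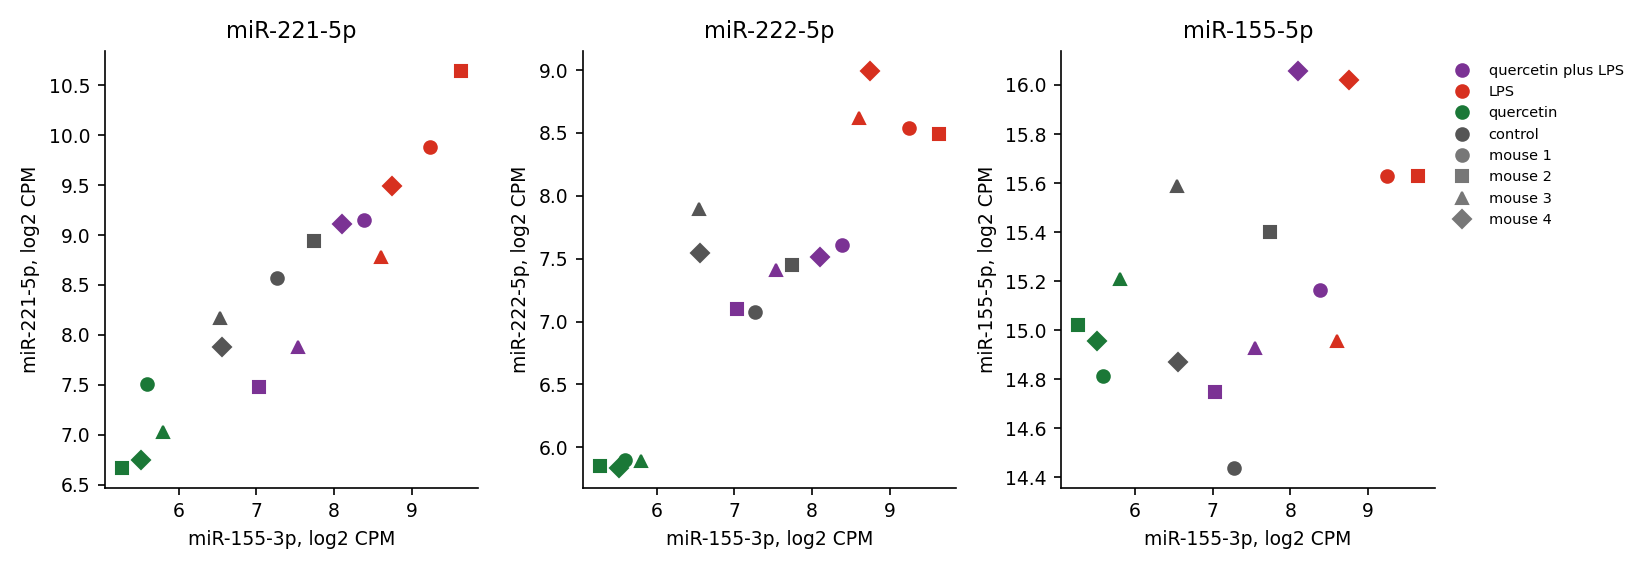
Log2 CPM of miR-221-5p, miR-222-5p and miR-155-5p against that of miR-155-3p in the 16 libraries, coloured by group with the mouse as the point's shape; the vertical axes differ in range. miR-221-5p follows the passenger over all libraries (r = 0.95) and within groups (r = 0.90 with group means removed). Over all libraries miR-222-5p follows it at r = 0.89, and the guide less closely (r = 0.51).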

How the data were processed

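The authors deposited 1 table of raw read counts per mature miRNA for 16 libraries, per its values. Per the labels' protocols, miRNeasy was used for RNA and TruSeq Small RNA for the libraries. Per the submitters' processing notes, cutadapt and the mouse build mm9 were used. The aligner, the counting rule and the versions are not given in the sources used here.

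Its 1381 rows carry 1377 names, since 4 names stand on 2 rows each and were summed. A row with text in 4 cells was left out, as were 4 rows whose counts look exchanged between neighbouring rows in the libraries with quercetin. This left 1372 names. The rows beside those of both miR-155 arms hold lower mean counts in every group. The row above the passenger averaged 318.5 counts in the quercetin group, against 406.5 for the passenger, and 68.75 against 1474.75 in controls. These means do not test for an exchange in single libraries.

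Levels were tested with edgeR 4.0.16 in R 4.3.3 by its quasi-likelihood test on counts of all 16 libraries, with filterByExpr, TMM scaling, 1 coefficient for each group, and p-values adjusted by Benjamini-Hochberg over 568 miRNAs (threshold 0.05). The SE is the log2 difference divided by the square root of F. Arm ratios, log2((5p + 0.5)/(3p + 0.5)), were tested with limma 3.58.1 over the 150 hairpins with both arms past the filter. An interval is at the 95% level. log2 CPM used a prior count of 2. The edgeR level test and the limma arm ratio test were tried on simulated counts for LPS against control.

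Mouse numbers in the titles and the series design mark the animal. Deviations from group means correlated at a mean r of 0.14 over 24 pairs of libraries from the same mouse (-0.47 to 0.65, 11 over 0.1) and at -0.04 over 72 pairs from different mice. The main fits do not use the mouse, and a fit with it as a block was an alternative. Others were library size, upper quartile and RLE scaling, no filter, DESeq2 1.42.0, limma-voom, fitting the compared groups alone, the 4 rows as deposited, a pseudocount of 5, another filter, exact permutation, and leaving out each library. Leaving out mouse 4 was added after seeing the data. A chi-square comparison of pairs of libraries within each group found no duplicated library, and pairs across groups were not compared. Separate cultures are not described beyond the mouse, so p-values measure the spread between these libraries.

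The members and lists were chosen with earlier results of these data known. Named miRNAs are the miR-155 arms, up to 4 members of the TLR list per comparison with the smallest p past the threshold, the 5 miRNAs most like each arm by Pearson r, the neighbours of each arm by control level, and hairpins past the threshold for arm ratio. Of these hairpins, those other than miR-155 were named only for the LPS comparison averaged over quercetin states. The exceptions are miR-486a and miR-486b, named because they had the same values. miR-150, miR-142a-5p and miR-451a were named as markers.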

Additional observations from a re-analysis of the deposited data

How the results depend on the processing

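Without the mouse as a block the results are as given; with the mouse as a replicate block no call on either arm or on the ratio changed (passenger 2.01 for LPS against control, adjusted p = 0.0151). Leaving out 1 library at a time, 229 of 264 values kept their direction and their side of the threshold, as did 183 of 198 under the other settings. Passenger differences then ran from 1.72 to 2.23 for LPS against control, from -1.36 to -0.85 for quercetin plus LPS against LPS and from 0.59 to 1.15 for quercetin plus LPS against control. Guide differences ran from -0.28 to 0.0845 for quercetin against control, from -0.41 to 0.0541 for quercetin plus LPS against LPS and from -0.32 to 0.16 for the interaction, so their sign is not settled. Ratio differences ran from -1.84 to -1.21 for LPS against control, from 1.12 to 1.75 for quercetin against control and from -2.17 to -1.77 for quercetin plus LPS against quercetin.

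With upper quartile scaling the passenger was no longer past the threshold for quercetin plus LPS against LPS (-0.92) and newly past it for quercetin plus LPS against control (1.01), and the guide stood at 0.0671 for quercetin against control and 0.0332 for quercetin averaged over LPS states. With library size scaling the guide stood at 0.0071 for quercetin against control. Fitting only the libraries compared, calls were lost for the passenger in quercetin plus LPS against LPS (-1.08) and for the ratio in quercetin against control (1.41). That ratio call was also lost with a pseudocount of 5 (1.40) and by exact permutation (1.41), as was the ratio in quercetin plus LPS against quercetin by exact permutation (-2.00). In both permutations p was the smallest that the method can reach, 0.0286, which became 0.05 when adjusted, so these 2 losses do not show a weaker difference. Without mouse 4 calls were lost for the passenger in LPS against control (1.96) and in quercetin plus LPS against quercetin (2.20). The ratio call in quercetin against control (1.50) was lost as well. The guide then stood at -0.0673 in quercetin plus LPS against quercetin and at -0.27 in quercetin plus LPS against control. That fit also holds fewer libraries, and the part of this and of mouse 4 itself was not tested. The cause of the other changes was not tested either.

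Counts of miRNAs past the threshold, 3 for LPS against control and 90 for quercetin against control, were 6 and 105 with DESeq2 and 0 and 46 without mouse 4. Those for quercetin plus LPS against LPS were 70 with only these groups fitted, against 130, and those for LPS averaged over quercetin states were 13 with DESeq2 and 3 with library size scaling, against 8. The smallest count of an arm in a library is 366, with a counting error of 5.23%. Library totals differed between groups, and the part of depth in the results was not tested.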
